A study of Mus musculus with 32 samples.

Results

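Rag1, Rag2 and Dntt, the genes of the lymphocyte-specific enzymes of V(D)J recombination, were followed across 32 lymphomas of Eµ-myc mice. Their probe sets were taken by annotation: those that carry 1 of the 3 symbols alone, and where a gene had several, the one with the highest mean stood for it. This gave 5 of the 34958 probe sets with 1 symbol, or 3 of 18194 genes. Rag1 (Entrez gene 19373) and Rag2 (19374) each had 1 probe set, and Dntt (21673) had 3.

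Every tumour carried the Eµ-myc transgene, in which the immunoglobulin heavy chain enhancer drives Myc in cells of the B lineage. The series has this 1 group and no normal lymphoid tissue, so levels are compared among tumours only. Mice were killed when lymphoma or illness was evident, and total RNA came from frozen tumour tissue or from pellets of dissociated tumour cells. Labelled cRNA was hybridised to Affymetrix Mouse430_2 arrays, 1 for each tumour. The labels do not say which tumours were handled as tissue and which as cells, nor whether any pair of tumours shared a mouse, and they give no strain, age or site. Each p-value therefore measures the spread between these samples, part of which may be technical. The deposited values are log2 expression values, so a difference of 1 is a doubling of signal.

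V(D)J recombination assembles immunoglobulin and T cell receptor genes from separate segments. Rag1 and Rag2 form the recombinase that binds and cuts the signals beside the segments, with Rag1 holding the catalytic site and Rag2 its partner that also binds modified chromatin. Dntt encodes terminal deoxynucleotidyl transferase, which adds untemplated nucleotides before the ends are joined by the general end-joining factors. In the B lineage the Rag genes are active in pro-B and pre-B cells and silent in most mature B cells, whereas Dntt is largely restricted to the pro-B stage.

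Rag1 and Rag2 lie tail to tail on mouse chromosome 2 (GRCm38.p6), Rag2 on the plus strand at chr2:101624712-101632528 and Rag1 on the minus strand at chr2:101638252-101649532. Dntt lies on the plus strand of chromosome 19 at chr19:41029275-41059525. Their promoter sequences from RefSeq are shown because Rag1 and Rag2 varied together and Dntt did not follow them. Each runs from 250 bases before to 50 bases after the start on the gene's own strand, and covers chr2:101649483-101649782 for Rag1, chr2:101624462-101624761 for Rag2 and chr19:41029025-41029324 for Dntt. Capitals mark matches to the E-box CANNTG, the Runx core TGTGGT, the CCAAT box CCAAT, the TATA box TATAAA or the Foxo core GTAAACA on either strand.
Rag1: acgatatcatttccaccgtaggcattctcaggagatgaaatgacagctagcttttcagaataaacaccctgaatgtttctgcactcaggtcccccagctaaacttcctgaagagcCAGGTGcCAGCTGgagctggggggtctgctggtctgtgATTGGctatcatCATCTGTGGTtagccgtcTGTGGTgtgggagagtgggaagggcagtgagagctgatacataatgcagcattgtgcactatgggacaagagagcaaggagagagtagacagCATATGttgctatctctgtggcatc
Rag2: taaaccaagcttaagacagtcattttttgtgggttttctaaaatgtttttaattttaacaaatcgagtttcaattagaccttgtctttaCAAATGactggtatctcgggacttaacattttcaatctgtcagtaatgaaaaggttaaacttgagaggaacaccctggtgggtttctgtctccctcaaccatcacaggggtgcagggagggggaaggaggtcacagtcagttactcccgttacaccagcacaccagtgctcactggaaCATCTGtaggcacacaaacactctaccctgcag
Dntt: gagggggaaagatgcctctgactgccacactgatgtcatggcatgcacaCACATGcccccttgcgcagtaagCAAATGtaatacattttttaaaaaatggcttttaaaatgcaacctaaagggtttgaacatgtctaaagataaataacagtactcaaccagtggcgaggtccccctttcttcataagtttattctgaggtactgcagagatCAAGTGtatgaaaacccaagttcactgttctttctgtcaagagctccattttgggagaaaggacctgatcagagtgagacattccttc

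The Rag1 window held 4 E-boxes, 2 Runx cores and 1 CCAAT box, the last read on the opposite strand, and its E-box at -85 overlapped the Runx core at -81. The Rag2 window held 2 E-boxes, at -161 and 18, and the Dntt window 3, at -201, -178 and -38. Positions count from the start site. None of the 3 windows matched TATAAA or GTAAACA. Among 32851 promoter windows of the same length, 72.3% held an E-box, 16.8% a Runx core, 37.4% a CCAAT box, 13.6% the TATA letters and 3.65% the Foxo letters. The matches describe the letters only.

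The arrays were of like brightness, with medians between 5.72 and 5.80, and no pair of arrays held identical values. Cd79b, a signalling chain of the B cell receptor, was at 11.11 or above in all 32 tumours. Tumours 2 and 24 stood apart by their T cell markers, with scores of 2.13 and 2.90 against at most 1.41 in any other tumour, and with the lowest levels of the B cell gene Cd79a (9.37 and 9.61). Salivary gland transcripts were high in 11 tumours (3, 4, 9, 12, 15, 16, 18, 20, 25, 29 and 30). Calls along Rag1, Rag2 and Dntt that named genes lost without the 11 salivary tumours, or without tumours 2 and 24, are given below. In bulk RNA, fewer cells of a type and less RNA per cell cannot be told apart.

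Rag1 was among the most variable genes of these lymphomas. Its log2 value ran from 3.38 in tumour 30 through a median of 7.53 to 12.02 in tumour 25 (SD 2.84, n = 32), and its SD ranked 11th beside those of the 11228 genes tested. The tumours formed a ladder with no wide step. At the bottom, 7 tumours (30, 2, 32, 23, 29, 24 and 16) lay between 3.38 and 3.91, and the next, tumour 17, was at 4.83. That gap of 0.93 was the largest and took 10.7% of the range. At the top, tumours 8 and 25 stood at 11.95 and 12.02. The 12 poly-A control probe sets, added to the RNA at a set amount, had SDs between 0.31 and 0.37 over the same arrays, so the Rag1 spread was far wider than that of added transcripts. Of 31 gaps between neighbouring tumours in the Rag1 order, 8 exceeded the largest control SD, so most neighbours were not separated beyond it.

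Rag2 spanned a narrower range. It ran from 4.39 in tumour 30 through 6.06 to 9.63 in tumour 8 (SD 1.34, n = 32). Whether the lowest values of either gene exceeded the array's background was not tested, so no fold range is given. Tumour 8 stood 1.28 above the next tumour, at 8.35, and the other 31 tumours formed a continuous series in which 1 more gap exceeded the largest control SD. The same tumour, 30, was lowest for both Rag genes. Tumour 30 also had the highest myeloid score (2.31) and the lowest proliferation score (-1.99) of the 32 tumours. Its stroma score was 1.86 and its salivary score 1.45. The part of other cells in its low Rag values was not tested.

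Dntt was distributed in another way. It was high in 3 tumours, at 9.0 in tumour 31, 9.72 in tumour 20 and 9.85 in tumour 16, and between 4.60 and 6.01 in the other 29 (median over all 32 tumours 5.0, SD 1.36). The empty stretch of 2.99 between the 2 sets was 57.1% of the range. Within the lower set, tumours 3 and 4 were highest at 6.01 and 5.61. The other 2 Dntt probe sets had the same 3 tumours at the top, with r of 0.98 and 0.99 with the brightest one over 32 tumours, and their highest values were 6.36 and 10.14. Dntt did not reach the mean of 5.78 that was asked of genes tested below, whereas Rag1 and Rag2 did, so 2 of the 3 genes passed that filter.

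**Figure D1:**
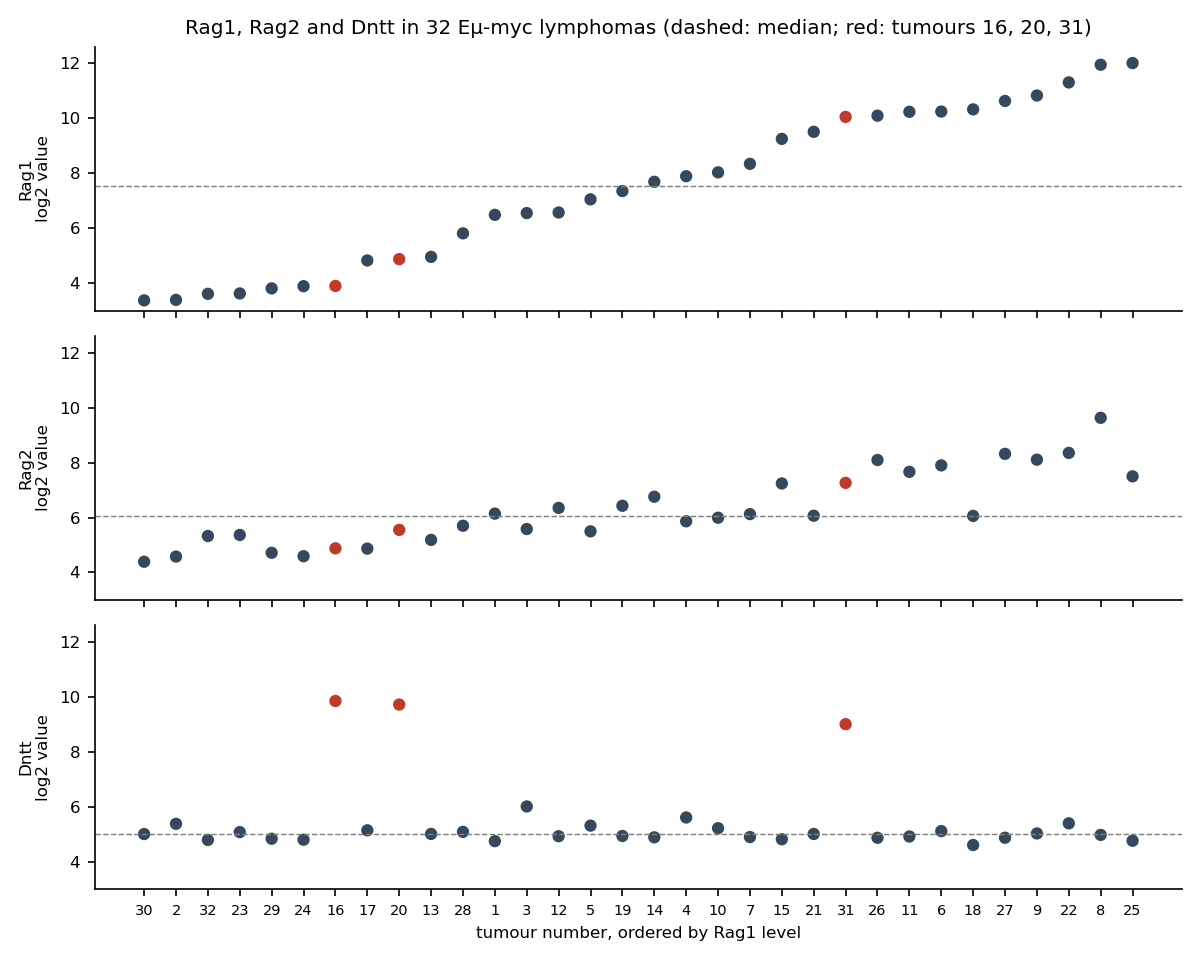
Log2 values of Rag1, Rag2 and Dntt in the 32 tumours, ordered by Rag1, with each point 1 tumour and the dashed line the median. Rag1 climbs from 3.38 to 12.02 and Rag2 climbs with it, while Dntt is at 9.0 or above only in tumours 16, 20 and 31, drawn in red.

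The 2 recombinase subunits rose and fell together. Over 32 tumours r was 0.90 and rho 0.91, each with a two-sided permutation p of 1e-05, the smallest that 100000 resamples can give, and an adjusted p of 6e-05 over the 6 relations computed. Without the 2 tumours farthest from the Rag1 median r was 0.90, and leaving out each tumour in turn gave 0.89 to 0.92. Without the 11 tumours with salivary transcripts r was 0.92, and without tumours 2 and 24 it was 0.89. With a host score held constant, averaged over the stroma, myeloid and T cell lists, the partial r was 0.90.

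The subunits were on the same side of their medians in most tumours, with 13 above both, 13 below both, and 3 in each mixed class. Their ranks differed by at most 4 places in 22 tumours. A line through the points rose by 0.42 in Rag2 for each 1 in Rag1, with a residual SD of 0.59. Tumour 8 lay farthest above that line, by 1.41. Tumour 18 lay farthest below it, at -1.47, with Rag1 ranked 27th from the lowest at 10.33 but Rag2 16th at 6.06. Tumour 25, the highest for Rag1, was 0.75 below the line (residual -0.75), at a Rag2 level of 7.50.

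High Dntt was found at both low and high Rag levels. The 3 tumours with high Dntt had Rag1 at 3.91 (tumour 16), 4.88 (tumour 20) and 10.06 (tumour 31), so 2 of them were low and 1 was high for the recombinase. Rag2 gave the same order, at 4.88, 5.55 and 7.26. Since Dntt fell into separate sets, its relations were computed within the lower 29 tumours only. There r with Rag1 was -0.11 (rho -0.11, permutation p = 0.575 for r, adjusted 0.812). With Rag2 r was -0.14 (rho -0.15, permutation p = 0.462 for r, adjusted 0.812). Without the 2 tumours farthest from the median these were -0.07 and -0.24. No relation was detectable among these tumours, and whether their Dntt values exceeded the array's background was not tested.

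RNA quality was read from the control probe sets of Gapdh and Actb, as the signal at the 3' end less that at the 5' end, and ranged from 0.26 to 0.96. Its r was 0.08 with Rag1 (permutation p = 0.677) and -0.03 with Rag2 (permutation p = 0.885). With Dntt within the 29 tumours r was 0.09 (permutation p = 0.625). In the same order rho was -0.03, -0.16 and 0.31, with permutation p of 0.868, 0.37 and 0.105. No adjusted p was below 0.316. Without the 2 farthest tumours r was 0.13, 0.11 and 0.02 in turn.

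**Figure D2:**
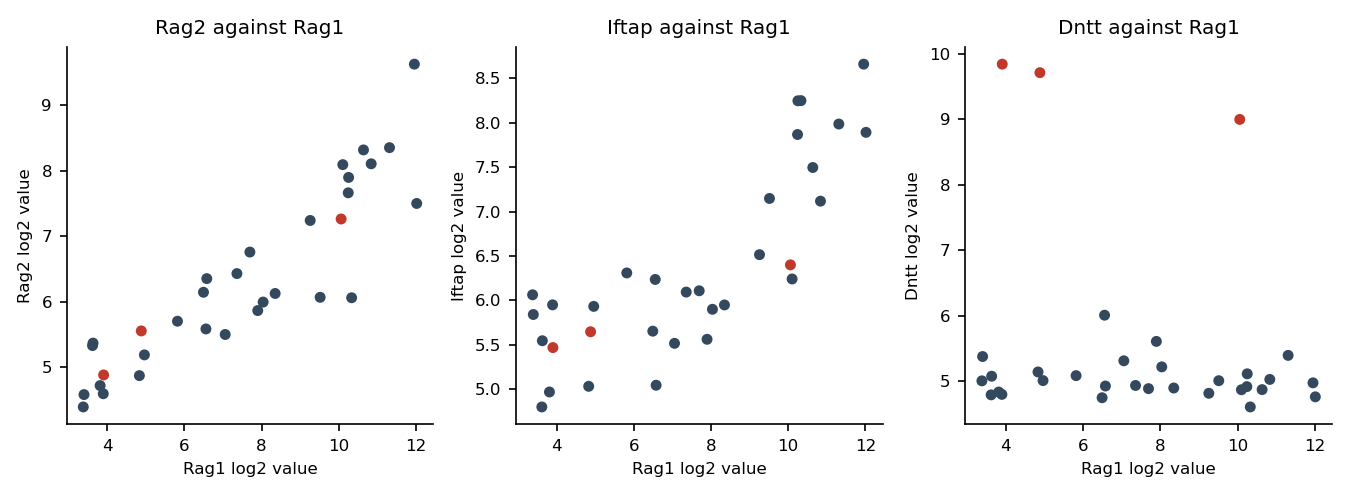
Log2 values of Rag2, Iftap and Dntt against Rag1 in the 32 tumours, with tumours 16, 20 and 31 in red. Rag2 (r = 0.90) and the neighbouring gene Iftap (r = 0.81) climb with Rag1, while the 3 high Dntt tumours sit at Rag1 levels of 3.91, 4.88 and 10.06.

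All tested genes were then set against each of the 3 levels. A gene's slope is its log2 change per 1 SD of the level in question, fitted by limma over the 32 tumours, and a gene passed at a Benjamini-Hochberg adjusted p under 0.05 over all genes tested. Along Rag1, 10 genes of 11227 rose (0.0891%) and 3 fell (0.0267%), or 0.116% in either direction, while 1143 had an unadjusted p under 0.05. Along Rag2, 30 rose (0.267%) and 8 fell (0.0713%), or 0.338%, with 1165 at an unadjusted p under 0.05. The 2 sets of slopes share their tumours and the subunits correlate, so they are not independent.

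Beside its partner subunit, the gene most like Rag1 was its neighbour Iftap. Rag2 itself had a slope of 1.20 ± 0.10 (SE) along Rag1 (limma adjusted p = 4.32e-09). Iftap, which overlaps Rag2 on the opposite strand (chr2:101560779-101629031), ran from 4.80 in tumour 32 through 6.08 to 8.66 in tumour 8. It was high in the tumours with high Rag1, and the 7 tumours lowest for Rag1 were at or below 6.06. Its slope along Rag1 was 0.87 ± 0.11 (r = 0.81, limma adjusted p = 2.66e-05) and along Rag2 0.79 ± 0.12 (r = 0.75, limma adjusted p = 0.00135). Along Rag1 it passed under each of the 13 other settings tried and without any 1 tumour. Along Rag2 it lost its call only without tumours 8 and 22 together (adjusted p = 0.113). The other 3 Iftap probe sets were dimmer, with r of 0.45, 0.06 and 0.56 with Rag1. Which part of the locus the bright one reads is not given in the sources used here.

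No other tested gene of the locus passed. Traf6, an adaptor of innate immune signalling that starts next beyond Rag1, had a slope of 0.19 along Rag1 (r = 0.37, limma adjusted p = 0.422). Commd9 (0.02, adjusted p = 0.912) and Ldlrad3 (0.12, adjusted p = 0.736) did not pass, and Prr5l was too dim to be tested. These were the other tested genes that start within 500 kb of Rag1, and the 3 did not pass along Rag2 either. Around Dntt on chromosome 19, none of the tested genes passed along Dntt, and the smallest adjusted p among them was that of Blnk, the adaptor of pre-B cell receptor signalling (slope 0.15, r = 0.45, limma adjusted p = 0.206).

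Tmem255a had the largest slope along Rag1 of the passing genes. It ran from 3.87 in tumour 2 through 8.11 to 11.42 in tumour 8, and its slope was 1.65 ± 0.24 along Rag1 (r = 0.77, limma adjusted p = 0.00041) and 1.70 ± 0.23 along Rag2 (r = 0.79, adjusted p = 0.000138). All 4 of its probe sets followed Rag1, with r between 0.63 and 0.78. Without the 11 tumours with salivary transcripts its Rag1 slope was 1.58 with an adjusted p of 0.0953.

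The other genes most like Rag1 moved less. Card6 had a slope of 0.41, A630023P12Rik 0.68, Phxr4 0.44, Sirt5, a mitochondrial desuccinylase, 0.43, and Pdha1, a subunit of pyruvate dehydrogenase, 0.16. Their limma adjusted p-values lay between 0.0035 and 0.031. A second Pdha1 probe set, with a mean of 9.55, had an r of 0.37 with Rag1, beside 0.68 for the brighter one. A630023P12Rik, Sirt5 and Phxr4 did not pass without tumour 8, and Pdha1 did not pass without any 1 of tumours 2, 6, 8, 17 and 18. Tmem108 (0.63) and Csgalnact2 (0.32) completed the 10 and fall outside the rule for named genes. They are named because the count is small. Without the 11 tumours with salivary transcripts, 2 of the 13 genes that passed along Rag1 kept their call, Rag2 and Iftap, and the adjusted p-values of Card6, A630023P12Rik, Phxr4, Sirt5 and Pdha1 were 0.153, 0.155, 0.253, 0.257 and 0.175. Fewer tumours were fitted there.

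Coro2b, an actin-binding coronin, fell as Rag1 rose. It was highest in tumour 2 at 8.96 and lowest in tumour 15 at 5.36, around a median of 6.62. Its slope was -0.63 ± 0.12 along Rag1 (r = -0.69, limma adjusted p = 0.013) and -0.65 ± 0.12 along Rag2 (adjusted p = 0.0061), and it did not pass without the 11 tumours with salivary transcripts (-0.58 along Rag1, adjusted p = 0.234). Ncoa1, a nuclear receptor coactivator (-0.29), and Inpp5f, a phosphoinositide phosphatase (-0.28), also fell along Rag1. Each lost its call without any 1 of 8 tumours, and without the 11 tumours (adjusted p = 0.338 and 0.334).

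Acbd3, Slc10a7 and Susd3 were also among the 8 genes most like Rag2, with slopes of 0.22, 0.25 and 0.49, and Ptprj, a receptor phosphatase, Rilpl2 and Faah, a fatty acid amide hydrolase, among those most unlike it, with -0.32, -0.33 and -0.26. All 6 passed (limma adjusted p 0.0105 at most for the rising and between 0.027 and 0.036 for the falling genes). None of the 6 passed without tumour 8. Without the 11 salivary tumours Susd3 (adjusted p = 0.0669), Ptprj (0.15), Rilpl2 (0.139) and Faah (0.171) lost their calls along Rag2, as did Coro2b (0.0739), Inpp5f (0.0925) and A630023P12Rik (0.0925), and 13 of the 38 genes called along Rag2 were called there too. Ptprj did not pass without tumours 2 and 24 (0.0569). The counts along the Rag genes moved with single tumours. Without tumour 8, 4 genes rose along Rag1 and 3 along Rag2. Without tumours 25, 29, 30 or 32, the number rising along Rag1 was 23, 29, 29 and 25. The number falling along Rag1 was 1 without tumour 8, 9 or 16, and 5, 14, 13, 8 and 12 without tumours 25, 29, 30, 31 and 32. Along Rag2 the number rising was between 13 and 19 without any 1 of tumours 4, 5, 13, 15, 16, 17, 19, 21 and 27. The number falling along Rag2 was 1 without tumour 8, between 3 and 5 without any 1 of tumours 3, 4, 5, 11, 13, 15, 16, 17, 19, 20 and 27, and 18 without tumour 18 or 29.

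**Figure D3:**
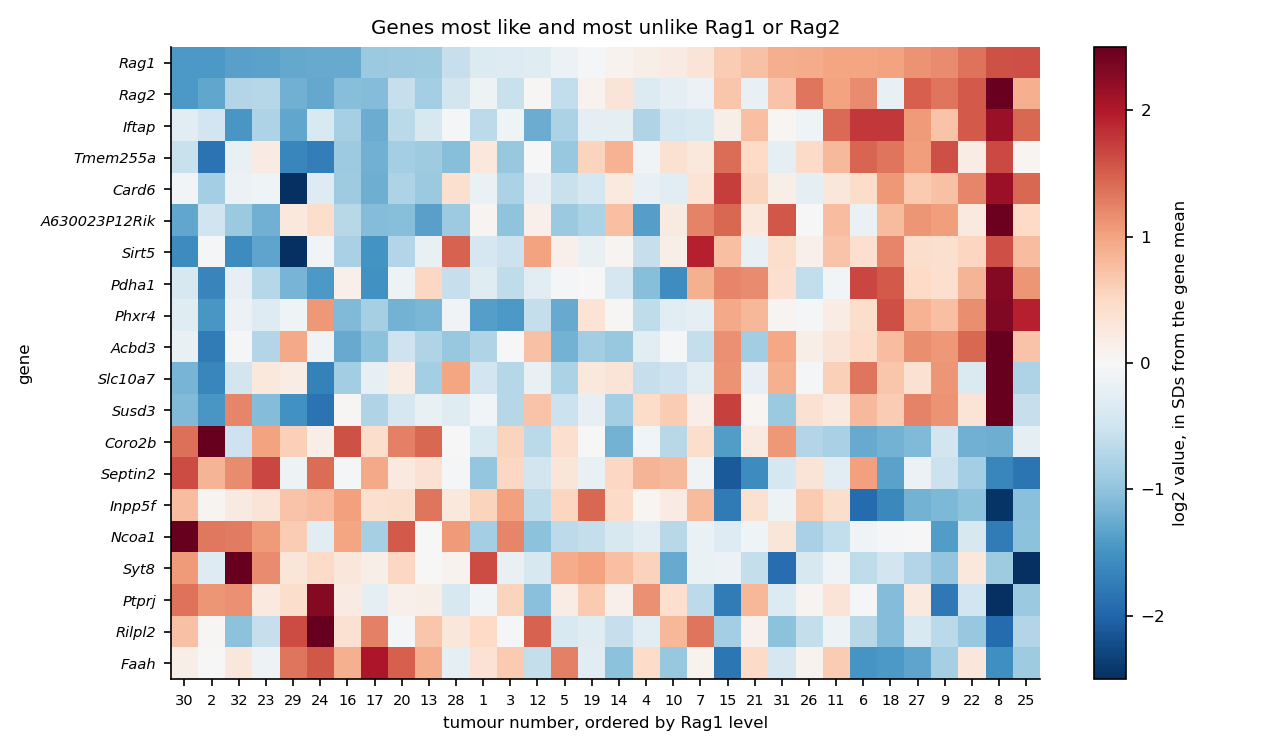
Genes most like and most unlike Rag1 or Rag2, as log2 values in SDs from each gene's mean (colour), with tumours in columns ordered by Rag1. Rag2, Iftap and Tmem255a turn from blue to red along the order, and Coro2b and Inpp5f from red to blue.

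Genes that act with the recombinase were examined next. Of 13 tested genes of end joining and repair, none passed along Rag1 or Rag2, and their median slope was 0.01 along each, beside -0.0027 and -0.00043 over all genes. Polm, a polymerase related to Dntt, had the largest slope, 0.31 along Rag1 (adjusted p = 0.407). Lig4, the ligase of this pathway, had -0.16 (adjusted p = 0.764) and Xrcc5, a subunit of the Ku end-binding complex, 0.07 (adjusted p = 0.640).

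Regulators gave the same count. Of 24 transcription factors known to act on the Rag genes or in the same cells, 0 passed along Rag1 and 0 along Rag2, with medians of -0.00 and 0.03. Foxo1, an activator of Rag transcription, had slopes of 0.25 along Rag1 (limma adjusted p = 0.355) and 0.31 along Rag2 (adjusted p = 0.163). Ebf1, a factor that specifies the B lineage, had 0.36 along both (adjusted p = 0.249 and 0.243). Gfi1b, a repressor of Rag expression, had -0.35 along Rag1 (adjusted p = 0.442) and Spib -0.31 (adjusted p = 0.252).

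Stage genes of the B lineage came next, to be read beside the 0.116% of all genes that passed along Rag1 and the 0.338% along Rag2. Of 10 tested genes of the pre-B cell receptor and its signalling, 0 passed along Rag1 (median slope 0.11) and 1 along Rag2 (median 0.10). That was Btk, the kinase downstream of the receptor, at 0.17 ± 0.04 (limma adjusted p = 0.017), which did not pass without tumour 8 (adjusted p = 0.12) and had 0.14 along Rag1 (adjusted p = 0.143). Igll1, the surrogate light chain gene, had a slope of 0.01 along Rag2 (adjusted p = 0.996).

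Of 17 tested precursor B cell genes, 0 passed along Rag1 and 1 along Rag2, with medians of -0.01 and -0.05. Cd93, a surface marker of immature B cells, had 0.63 ± 0.15 along Rag2 (limma adjusted p = 0.048) and 0.61 ± 0.15 along Rag1 (adjusted p = 0.075). Its Rag2 call held in 8 of 32 fits that left out 1 tumour, and it was lost without tumours 2 and 24 (0.48, adjusted p = 0.105). Egfl6 of the same list went the other way and did not pass. With each tumour left out in turn its slope was -0.97 to -0.67 along Rag1 and -0.96 to -0.68 along Rag2. Of 14 tested mature B cell genes, 0 passed along Rag1 or Rag2 (medians 0.05 and 0.09). Tnfrsf13c, the BAFF receptor, had the strongest negative slope among them, -0.50 ± 0.12 along Rag1 (adjusted p = 0.068). None of 14 proliferation genes passed along Rag1, Rag2 or Dntt, with medians of 0.02, 0.03 and 0.06, and their slopes along Rag1 were small, with Mki67 at -0.01.

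Genes of other cells did not pass along the Rag genes. Of 9 tested T cell markers, none passed along Rag1 or Rag2, with a median slope of -0.27 along each, which was -0.03 and -0.06 without tumours 2 and 24. Those tumours had Rag1 at 3.40 and 3.90. Of 10 myeloid markers none passed (medians -0.06 and -0.13), and of 7 salivary gland markers none passed (medians -0.27 and -0.56). Without tumours 2 and 24, 43 genes rose and 16 fell along Rag1. Their part in the Rag slopes was not tested beyond these values.

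**Figure D4:**
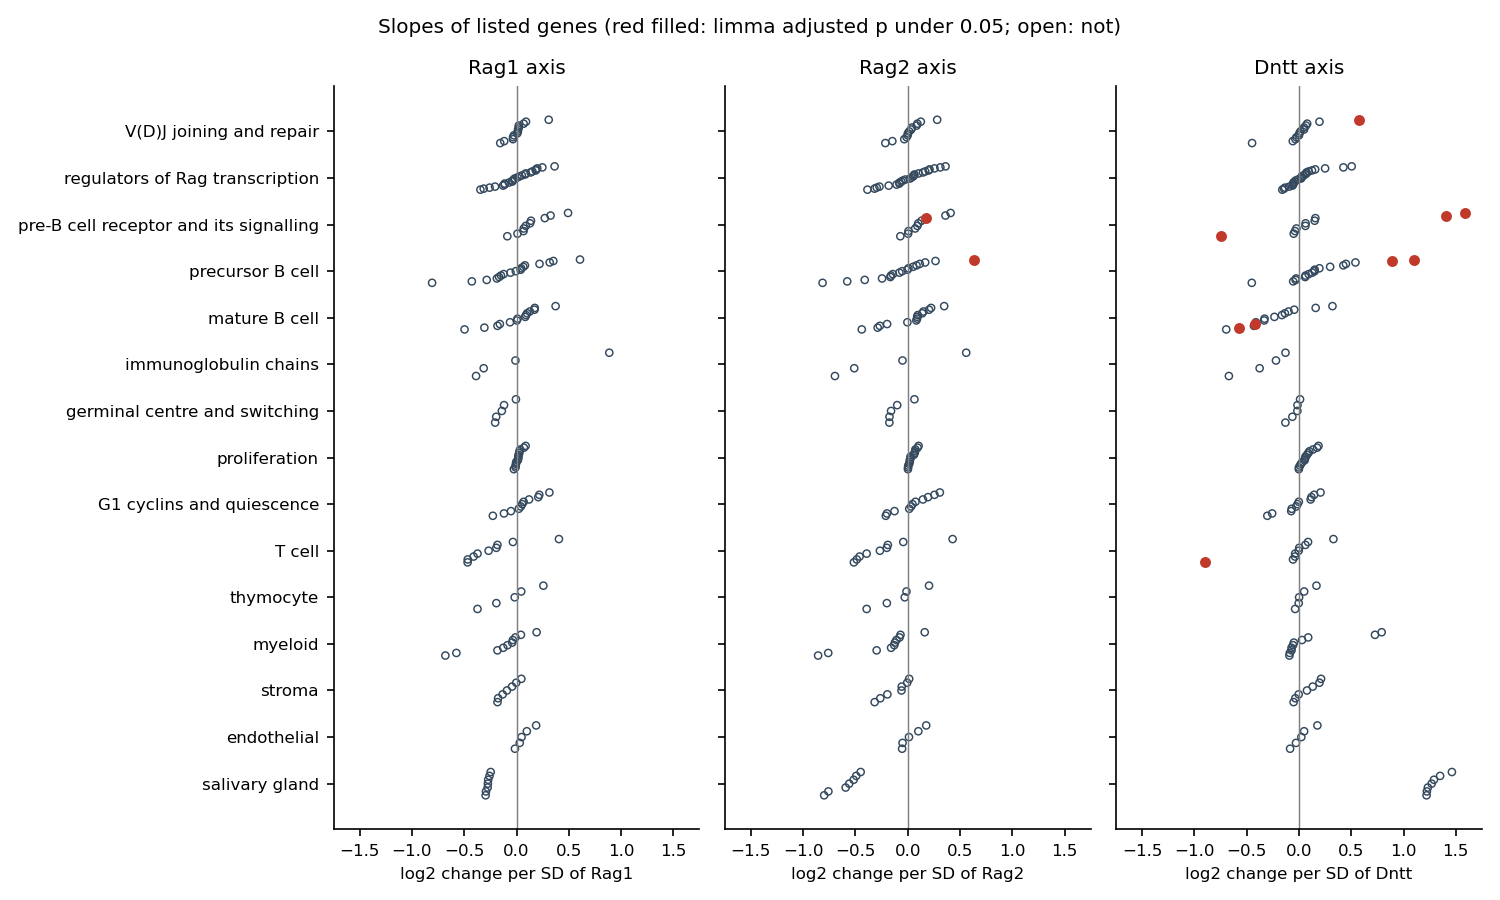
Slopes of the tested genes of each list along Rag1, Rag2 and Dntt, as log2 change per SD of each gene's level, with genes that passed the limma test in filled red and others open. Along Rag1 no listed gene passed, along Rag2 only Btk and Cd93 did, and along Dntt genes of the pre-B cell receptor and precursor lists lie farthest to the right among those that passed.

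Along Dntt more genes passed. Of 11228 tested, 91 rose (0.81%) and 23 fell (0.205%), or 1.02% in either direction, with 1357 at an unadjusted p under 0.05. These slopes rest on tumours 16, 20 and 31. Of the 91, 4 reached the mean of 5.78 only through those 3 tumours and so had to differ. Within the other 29 tumours 0 genes rose and 0 fell. The rise was also lost when Dntt was replaced by its ranks (0 and 0). Without tumour 16, 20 or 31 alone, 30, 13 and 27 genes rose and 12, 1 and 4 fell. Values in those 3 tumours are therefore given beside the range of the other 29, as a description.

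The 3 tumours had high levels of both surrogate light chain genes. Igll1, which encodes its lambda5 part, was at 10.83 in tumour 16, 10.69 in tumour 20 and 11.25 in tumour 31. The others lay between 5.45 and 10.98, and only tumour 6 reached this height. Vpreb1, its other part, was at 11.36, 11.41 and 12.43, and in the others between 4.90 and 11.64, with tumour 25 at the top and tumour 6 next at 11.17. So surrogate light chain expression extended to tumours in which Dntt was low, at 5.11 in tumour 6 and 4.76 in tumour 25. The slopes along Dntt were 1.41 ± 0.20 for Igll1 (limma adjusted p = 9.31e-05) and 1.59 ± 0.27 for Vpreb1 (adjusted p = 0.002). Of the pre-B cell receptor list, 2 of 10 tested genes rose and 1 fell, with a median slope of 0.06 beside 0.0013 over all genes. A second Igll1 probe set was dim and did not follow (r = -0.10 with Dntt). Vpreb1 has the near-identical copy Vpreb2, so its signal is uncertain between these 2 copies.

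Erg and Arpp21, genes of early B cells, were highest in the same 3 tumours. Erg, an ETS factor of stem and progenitor cells, was at 9.16, 9.32 and 10.49, and between 5.89 and 7.85 in the others, with a slope of 0.89 ± 0.09 (r = 0.87, limma adjusted p = 1.95e-07). Without the 3 tumours its slope was 0.05 (adjusted p = 0.919). Arpp21, a gene of B cell precursors that was too dim on average to be tested, was at 7.96, 9.28 and 9.47, and at most 6.67 elsewhere. Enpep, the BP-1 antigen of pre-B cells, was at 10.44, 9.52 and 10.77, but up to 10.56 in the others (slope 1.10 ± 0.28, limma adjusted p = 0.043). It did not pass with the salivary score as a covariate (adjusted p = 0.0573) or without the 11 salivary tumours (adjusted p = 0.361). Of 17 tested precursor genes 2 rose along Dntt, with a median slope of 0.15. Ly6d of this list went the other way and did not pass, with slopes of -0.52 to -0.30 when each tumour was left out in turn.

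Other genes most like Dntt separated the same tumours. Uaca was at 8.06, 8.87 and 8.95 against at most 7.62 elsewhere, and Slc45a3 at 7.22, 7.69 and 8.77 against at most 6.73. Pqlc3 was at 9.82, 9.62 and 10.27 against at most 8.68. The slopes of these 3 genes were 0.68, 0.55 and 0.76 (limma adjusted p at most 0.00022). Mfsd4a had 0.57, and did not pass without the 11 salivary tumours (adjusted p = 0.0716), and Aatk had 0.15. Gfra1, a receptor subunit for the growth factor GDNF, was at 8.71, 8.87 and 9.50 against at most 7.73. It averaged 5.53 in the other 29 tumours, under the mean asked of tested genes, so its values are a description.

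Cd2, Blk, H2-Aa and Cd74 fell along Dntt. Cd2, an adhesion receptor that appears on mouse B cells as they mature and is also a T cell marker, was at 6.41, 6.52 and 6.72 in tumours 16, 20 and 31, below every other tumour (6.82 to 11.08), with a slope of -0.90 ± 0.16 (limma adjusted p = 0.002). Blk, a kinase of the B cell receptor, was at 7.08, 6.89 and 6.68, and tumours 17 and 13 were as low at 7.03 and 7.19 (slope -0.75, adjusted p = 0.048). The class II gene H2-Aa was at 9.75, 10.98 and 11.54 against 10.99 to 13.37 in the others (slope -0.42, adjusted p = 0.035), and its chaperone Cd74 at 9.41, 10.28 and 11.37 (slope -0.58, adjusted p = 0.0498). Of 14 tested mature B cell genes H2-Aa and Cd74 fell and none rose, with a median slope of -0.28. Tnfrsf13c of this list had positive slopes without passing, 0.23 to 0.34 when each tumour was left out in turn. Without the 11 tumours with salivary transcripts none of the 4 passed. Cd2 had -0.62 (adjusted p = 0.257), Blk -0.54 (0.445), H2-Aa -0.11 (0.881) and Cd74 -0.21 (0.686), and the median of the mature list was -0.12. Cd74 also did not pass with the salivary score as a covariate (0.0704), and neither Blk (0.0537) nor Cd74 (0.0576) passed without tumours 2 and 24.

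Ly86, the partner of a toll-like receptor relative on B cells, was at 9.05 and 8.67 in tumours 20 and 31 but at 11.46 in tumour 16, within the range of the others (10.86 to 12.46). Its slope of -0.56 (limma adjusted p = 0.0021) did not pass without tumour 20 or without tumour 31. The same holds for Ryk (-0.50) and Zscan12 (-0.24), and Mtpn (-0.11) did not pass without any 1 of the 3 tumours. Other Mtpn probe sets had r between -0.62 and 0.04 with Dntt, beside -0.65 for the brightest. A second, dimmer Zscan12 probe set had an r of -0.33, beside -0.65. Zscan12 (adjusted p = 0.21) and Mtpn (0.434) did not pass without the 11 salivary tumours. The 3 tumours with high Dntt thus did not share the low value of Ly86. For Ryk, Zscan12 and Mtpn only the calls are given, which do not show whether the 3 tumours shared low values.

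Of the end-joining list 1 of 13 tested genes rose along Dntt, Xrcc6, the other Ku subunit (slope 0.57 ± 0.14, limma adjusted p = 0.046), with a list median of 0.01. Its values in tumours 16, 20 and 31 were 11.43, 11.33 and 12.21, and the others ran up to 11.75. Xrcc6 held its call in 11 of 32 fits that left out 1 tumour, and lost it without the 11 salivary tumours (adjusted p = 0.0676). None of the 24 regulators passed (median 0.02), including Lef1, a factor of early lymphocytes (0.50, adjusted p = 0.514), and neither Rag1 (-0.51, adjusted p = 0.778) nor Rag2 (-0.20, adjusted p = 0.824) did.

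Markers of other cells gave mixed values in the 3 tumours. Tumours 16 and 20 belonged to the 11 with salivary transcripts, with salivary scores of 1.61 and 1.66, and tumour 31 did not, at -0.69. Of the 7 salivary markers none passed along Dntt, with a median slope of 1.27, which was -0.03 without the 11 tumours. The part of salivary transcripts in the Dntt slopes was not tested further. Without those 11 tumours, where the fit rests on tumour 31 as the only one with high Dntt, 81 genes were called, and 24 of the 114 called over all tumours were among them. Igll1, Vpreb1 and Erg were (adjusted p = 0.0374, 0.015 and 1.49e-05), and Enpep, Xrcc6, Mfsd4a, Cd2, Blk, H2-Aa and Cd74 were not, as given above. Dntt is also made in thymocytes. T cell scores were -0.11, 0.08 and -1.05 in tumours 16, 20 and 31, the last the lowest of all 32, and Ptcra, the pre-T cell receptor chain, was at 5.39, 5.07 and 5.03 against 5.0 to 5.52 in the others. None of 5 tested thymocyte markers passed along Dntt (median 0.00). Tumours 2 and 24, highest for T cell markers, had Dntt at 5.37 and 4.80.

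**Figure D5:**
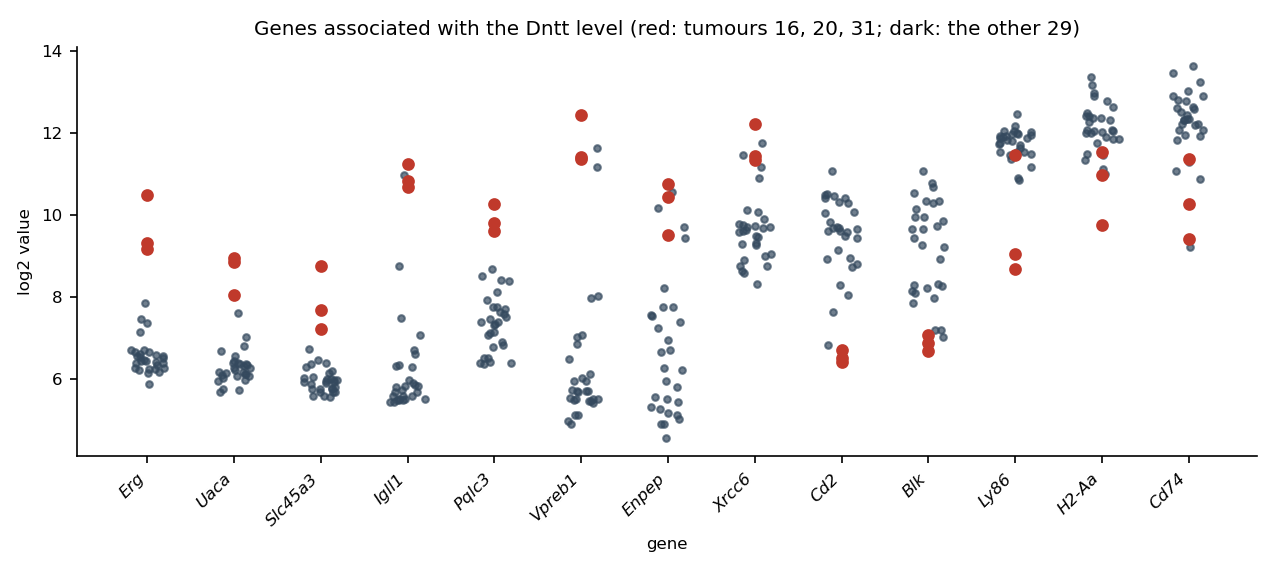
Log2 values of 13 genes that passed the limma test along Dntt, with tumours 16, 20 and 31 in red and the other 29 in dark blue. The red points lie above all others for Erg, Uaca, Slc45a3 and Pqlc3 and below all others for Cd2, and they overlap other tumours for Igll1, Vpreb1, Enpep, Xrcc6, Blk, Ly86, H2-Aa and Cd74.

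The slopes along Rag1 and Dntt were compared by placing both levels in 1 fit. The difference, the Rag1 slope minus the Dntt slope, passed for 149 of 11227 genes (1.33%), being positive in 53 (0.472%) and negative in 96 (0.855%). The Dntt slope in this fit rests on the 3 tumours with high Dntt, so the difference is in part a description of them. Without those 3 tumours, an alternative chosen after seeing the data, 42 genes were called, and 18 of the 149 were among them. A positive difference can come from a rise along Rag1, from a fall along Dntt or from both. It came with a rise along Rag1 for Rag2 (difference 1.19 ± 0.14, limma adjusted p = 7.69e-06), Tmem255a (1.91) and Iftap (0.90), which passed along Rag1 and not along Dntt. It came with a fall along Dntt for Cd2 (1.10), Blk (1.05) and Cd74 (0.81), which passed along Dntt and not along Rag1. Their Rag1 slopes were positive as well, so these differences hold both parts. With each tumour left out in turn those Rag1 slopes were 0.30 to 0.51, 0.42 to 0.59 and 0.26 to 0.46. Polm (0.64) passed along neither alone. Negative differences came with a rise along Dntt for Erg (-0.76 ± 0.11, adjusted p = 0.0005), Pqlc3 (-0.94), Uaca (-0.60), Slc45a3 (-0.56) and Igll1 (-1.14), and with a fall along Rag1 for Coro2b (-0.92), which did not pass along Dntt. Coro2b also had an r of 0.48 with Dntt, and Pqlc3 an r of -0.35 with Rag1. Tnfrsf13c (-0.69) passed along neither alone. The counts of positive and negative differences fell to 7 and 12 without tumour 20, to 28 and 42 without tumour 16 and to 32 and 59 without tumour 8. They were 80 and 151 without tumour 2, 81 and 152 without tumour 24, and 102 and 174 without tumour 30. The first count was 92 without tumour 25.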

How the data were processed

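Per the submitters' processing notes, the authors obtained the deposited log2 values by RMA (package affy). That method subtracts background, gives all arrays 1 distribution and merges each set's probes, so a shift common to most genes would be hidden. The sources used here give no versions, batches or builds. The members and lists were chosen with earlier results of these data known.

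Of 45101 probe sets, 34958 had 1 symbol, 932 several and 9211 none. Of the first, the Entrez identifiers of 34754 were in the RefSeq table of GRCm38.p6. Genes were tested where the brightest probe set had a mean of at least 5.78, the median over probe sets. Fits used limma 3.58.1 in R 4.3.3. Permutations used numpy 2.4.6 in Python 3.11.15. A level was treated as clustered where 25% or more of its range was empty with 3 or more tumours on either side. A list's score is the mean standardised value of its tested genes.

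Named genes were the members, the 8 most like and 5 most unlike each by r, list members (the 2 largest and 2 smallest moderated t, and any that passed), genes starting within 500 kb, and the 5 largest slope differences each way. The fits were checked on simulated data with noise drawn separately for each gene. Of genes given the weaker effect, 13% were recovered along Rag1, 18% along Rag2, 24% along Dntt and 4% for the slope difference. With the stronger, a change of 1 SD of the gene per SD of the level, 91%, 95%, 95% and 62% were. A gene that did not pass may therefore still follow a level. Alternatives covered normalization, the filter, probe sets, covariates, ranks, robust regression and tumours left out. 1 was added after the data were seen, leaving out tumours 16, 20 and 31.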

Additional observations from a re-analysis of the deposited data

How the results depend on the processing

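The relation of Rag1 with Rag2 kept its direction and its side of the threshold under all alternatives run (r between 0.89 and 0.92). No paired analysis was possible because the labels give 1 group. The SD from the median absolute deviation was 3.96 for Rag1, 1.52 for Rag2 and 0.23 for Dntt, and the Dntt SD without the salivary tumours was 0.89. Counts below give genes rising, then falling. Robust regression gave 121 and 56 along Rag1, 139 and 72 along Rag2, 367 and 179 along Dntt, and 373 and 415 for the slope difference. In simulated data where no gene followed Rag1, it gave 6.57% of genes an unadjusted p under 0.05, beside 4.95% by least squares. Each called 0 genes there. Without the 2 farthest tumours the counts were 4 and 1 along Rag1, 2 and 0 along Rag2, and 22 and 3 along Dntt. Without the salivary tumours they were 2 and 0, 15 and 5 along the Rag genes, and 21 and 35 for the difference, where fewer tumours were fitted. Without the tumours highest for T cell markers they were 43 and 16 along Rag1, 17 falling along Rag2, and 155 and 230 for the difference. A filter at the 75th percentile gave 3 rising along Rag1, 5 falling along Rag2, 48 and 14 along Dntt, and 30 and 56 for the difference, and no filter 19 rising along Rag2. Ranks gave 19 and 4 along Rag2, 0 and 0 along Dntt, and 85 rising for the difference. The host covariate (averaged over the stroma, myeloid and T cell lists) left 1 falling along Rag1, and 14 and 2 along Rag2, and the salivary covariate 5 falling along Rag1. Shifting arrays by the reference genes, by -0.14 to 0.10, gave 49 rising along Dntt and 81 for the difference. Without tumours 16, 20 and 31, an alternative chosen after seeing the data, the counts were 6 rising along Rag1, 12 and 3 along Rag2, and 0 and 0 along Dntt, where Ly86 (0.011), Ryk (0.049) and Xrcc6 (-0.014) changed sign. For the difference, 42 genes were called there in either direction, and 18 of the 149 called over all tumours were among them. Leaving out each tumour in turn gave 4 to 29 and 1 to 14 along Rag1, 3 to 44 and 1 to 18 along Rag2, 13 to 120 and 1 to 33 along Dntt, and 7 to 102 and 12 to 174 for the difference. The cause of these shifts was not tested.

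The 5 relations other than that of Rag1 with Rag2 were not past the threshold in any setting, and 3 of them changed sign. Rag1 with Dntt was 0.0043 without the salivary tumours. Rag1 with RNA quality was -0.031 as rho, -0.12 without the salivary tumours and -0.065 to 0.14 without each tumour in turn. Rag2 with RNA quality was 0.022 given the host scores, 0.11 without the 2 farthest tumours and -0.22 to 0.060 without each tumour in turn. With 1 array for each tumour, the number of arrays limits the precision.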

Other observations

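Many of the genes that rose along Dntt lie on 1 chromosome. Of 90 rising genes with a chromosome in the RefSeq table, 39 were on chromosome 15, which held 4.11% of the genes tested, and 11 were on chromosome 12, which held 3.61%. Along Rag1 and Rag2, 1 rising gene each was on chromosome 15. The median slope along Dntt was 0.089 over the 461 tested genes of chromosome 15. Both were counted after the calls were seen.

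The mean deviation of chromosome 15 genes, less that of all genes, was between 0.24 and 0.27 on the log2 scale in 5 tumours (13, 16, 17, 20 and 31). In the other 27 it did not exceed 0.04. All 3 tumours with high Dntt were among the 5, whereas Dntt was at 5.01 in tumour 13 and 5.14 in tumour 17. Those 2 had Rag1 at 4.96 and 4.83. Several genes that passed along Dntt were high or low in them too. Xrcc6, itself on chromosome 15, was at 10.91 and 11.16, Enpep at 9.44 and 10.56, Cd2 at 7.63 and 6.82, and Blk at 7.19 and 7.03. Erg (7.47 and 6.44), Igll1 (6.63 and 7.08) and Vpreb1 (6.85 and 7.03) were lower there than in tumours 16, 20 and 31. The part of the chromosome 15 level in the Dntt slopes was not tested.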
